A study of Drosophila melanogaster with 6 samples.

Results

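Xrp1, p53 and 8 genes that sense, signal or repair DNA breaks were followed in fly ovaries that lack the promoter of flamenco (flam), an X-linked source of piRNAs against transposons in the somatic cells of the ovary. The 10 genes were chosen by name, as Xrp1, p53, Irbp, Ku80, mre11, rad50, nbs, lok, mei-41 and tefu, from a table of 17760 rows (17633 genes and 127 transposon families). All 10 were found by symbol and all passed the filter on low counts. One set of ovaries came from Drosophila melanogaster females of the genotype flamDeltaProm/flamDeltaProm ; +/+ ; +/+, and the control set from females of the genotype flamDeltaProm/FM7 ; +/+ ; +/+, in which FM7 is a balancer X chromosome. Each genotype gave 3 polyA mRNA libraries, from flies 3 to 6 days old, and every fly carried at least 1 copy of the deletion. The genotypes also differ by the balancer itself, so for every gene the flam genotype and the rest of the X cannot be told apart. The titles of the FM7 libraries call the other chromosome WT, and nothing in the labels says whether replicates came from separate dissections, so p-values cover the spread between these libraries, which may be technical.

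Breaks in DNA are detected in animal cells by protein complexes that hold the broken ends and switch on checkpoint kinases. In flies, the Mre11, Rad50 and Nbs proteins form one such complex, and Irbp (the fly Ku70) and Ku80 form another that guides the direct joining of ends. The kinases mei-41 (the fly ATR) and tefu (the fly ATM) signal to lok (the fly Chk2), which activates p53. Xrp1 is a transcription factor with an AT-hook and a basic leucine zipper, first known as a gene that X-rays induce through p53 and also active in cell competition and in stress of translation. In the ovary these genes matter because meiosis makes breaks on purpose, and because the mei-41 and lok checkpoint disturbs oocyte patterning when breaks persist, also in germline piRNA mutants.

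Levels are given as CPM, counts scaled to the size of their library after TMM normalisation. Of the 10 genes, Xrp1 stood out: its RNA was about 2.13 times as abundant in homozygous ovaries as in FM7 ovaries. mei-41 was also higher, by 23.2%, and Irbp fell by 12.9%. p53 itself, the 3 genes of the Mre11 complex, Ku80, lok and tefu did not pass the test. By edgeR's quasi-likelihood test with Benjamini-Hochberg adjustment over all 9229 features at a threshold of 0.05, 2 of 10 were therefore higher, against 12.0% of all features, and 1 of 10 lower, against 7.71%. In either direction 19.7% of features passed. The counts of genes that passed were thus close to the background, and the median log2 fold change of the 10 genes was -0.01, as was that of all features (-0.01). The values of the 2 genotypes did not overlap for 6 of the 10 genes, 3 of them higher (Xrp1, lok and mei-41) and 3 lower (Irbp, Ku80 and tefu) in homozygotes. Over all features 41.9% did not overlap, 21.8% with homozygotes higher and 20.0% with homozygotes lower.

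**Figure D1:**
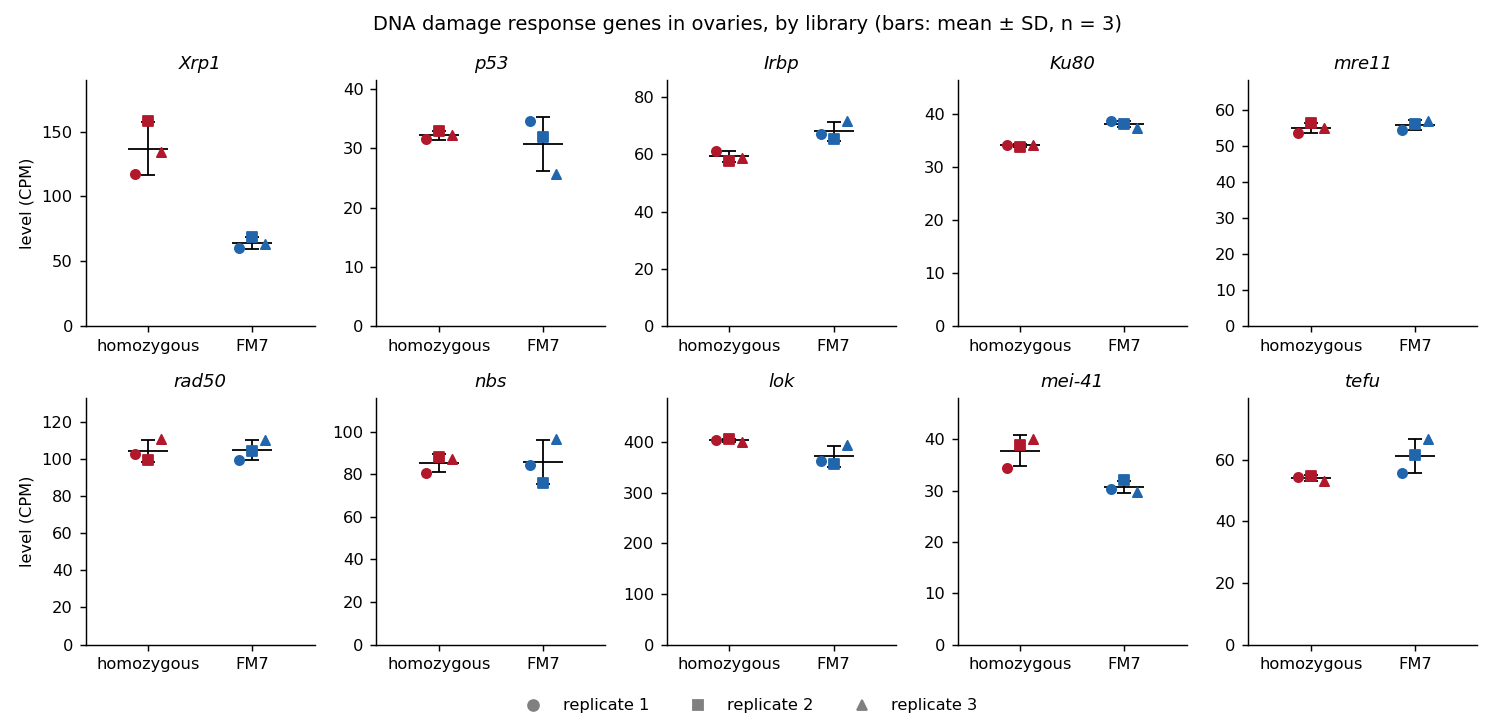
Level of each of the 10 genes in CPM in the 3 homozygous and the 3 FM7 libraries. Each point is a library, its shape the replicate number, and the bars are the mean and SD. The 3 homozygous libraries of Xrp1 lie between 117 and 158 CPM, above the FM7 range of 60.0 to 68.9 CPM.

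Library totals were 22996267 to 23159557 counts in homozygotes and 19564819 to 23181058 in FM7 controls. flam RNA had 12, 6 and 18 counts in homozygous libraries and 43, 37 and 41 in FM7 libraries (log2 fold change -1.93, adjusted p = 0.0119 by edgeR), in the direction of the genotype labels. Principal components split the libraries by genotype first (68.8% of the variance). The next component (12.8%) had FM7 replicate 2 at 29.7 and homozygous replicate 1 at 12.8, with all other libraries negative. Cell type markers differed too, in lists chosen as markers of cells the dissected ovaries could hold. Of 11 tested haemocyte (blood cell) markers 6 were higher and 1 lower, and of 16 tested muscle sheath markers 10 were higher and 0 lower. All 5 vitelline membrane genes were lower. For the 9 chorion genes, active in the last stages of the follicle, the median log2 fold change was -1.91. Of them 0 passed by edgeR after adjustment, 6 had an unadjusted p under 0.05, and 6 passed by DESeq2 and 6 by limma-voom. Their summed level was 12555, 3853 and 5466 CPM in homozygous replicates 1 to 3, against 25694 to 30219 CPM in FM7 libraries. Of 8 tested germline markers 1 was higher and 0 lower, of 7 follicle cell markers 2 were higher and 2 lower, and of 3 tested fat body markers 1 was higher and 0 lower. These are bulk ovaries, in which fewer cells of a type and less RNA per cell cannot be told apart.

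Xrp1 (FBgn0261113) lies on the plus strand of chromosome 3R, from 18914968 to 18926989 in BDGP6.54, with 4826 exonic bases. It had 2778, 3783 and 3176 counts in homozygous replicates 1 to 3, and 1338, 1293 and 1352 in FM7 replicates 1 to 3. Scaled to library size these were 117, 158 and 134 CPM in homozygotes, against 60.0, 68.9 and 63.4 CPM in FM7 controls. Every homozygous library was above every FM7 library, with replicate 2 the highest of its group and replicate 1 the lowest. The mean was 137 ± 20.5 CPM in homozygotes and 64.1 ± 4.49 CPM in FM7 controls (SD, n = 3 each). This gave a log2 fold change of 1.09 (SE 0.11, 95% interval 0.84 to 1.34) and, by edgeR, an adjusted p of 9.4e-04.

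The size of this rise was uncommon among well expressed genes. Of 9229 features, 829 (8.98%) had a log2 fold change at least that of Xrp1, but among the 6823 with a mean of at least 10 CPM the share was 1.48%. An adjusted p at or under that of Xrp1 was reached by 78 features, Xrp1 included. The call held in all 6 fits without 1 library, with a log2 fold change of 0.97 to 1.19 and an adjusted p up to 0.0178.

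Homozygous replicate 2, with the highest Xrp1 level, had the lowest chorion sum, and replicate 1, with the lowest Xrp1 level, the highest. In FM7 controls, by contrast, replicate 2 was highest and replicate 1 lowest for both Xrp1 (60.0, 68.9 and 63.4 CPM) and chorion. The FM7 chorion sums of replicates 1 to 3 were 25694, 30219 and 28164 CPM. The summed haemocyte markers were 926, 951 and 1049 CPM in homozygous replicates 1 to 3 and 873 to 1178 CPM in FM7 controls. Most of this sum was Col4a1, vkg and crq, which averaged 421, 316 and 208 CPM in FM7 controls and did not pass the test. The list's genes moved in both directions. Hml, a marker of differentiated haemocytes, was higher in homozygotes (log2 fold change 3.22, adjusted p = 0.0021), whereas srp, a GATA factor gene, fell to 42.5 ± 6.24 CPM in homozygotes, against 98.0 ± 6.53 CPM in FM7 controls (SD, n = 3 each; log2 fold change -1.21, adjusted p = 4.7e-04 by edgeR). Of the haemocyte markers, He had 3 counts in homozygous replicate 1 and 0 in all other libraries, and no marker was at 0 in all libraries. The summed muscle markers were 873, 1070 and 1177 CPM in homozygous replicates 1 to 3 and 701 to 789 CPM in FM7 controls. The part of these cell types in the rise of Xrp1 was not tested. The markers named here were picked after their values were seen.

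The genes around Xrp1 did not follow it as a block. Within 20 kb on either side, the nearest tested neighbours were EndoA, an endophilin gene (log2 fold change -0.00, adjusted p = 0.986), Sgsh (0.40, adjusted p = 0.359) and Mpc1, a mitochondrial pyruvate carrier gene (-0.13, adjusted p = 0.230), and none of them passed edgeR's test. Farther upstream, on the other strand, CG14292 rose to 71.1 ± 21.6 CPM in homozygotes, against 12.2 ± 3.83 CPM in FM7 controls (log2 fold change 2.55, adjusted p = 0.0123), and CG34284 also rose (2.76, adjusted p = 0.0018). The annotation places an insertion of the DNA transposon 1360 and one of S2 inside Xrp1, outside its exons. The family of the first had 70, 43 and 70 counts in homozygotes and 60, 54 and 53 in FM7 controls (log2 fold change -0.06, adjusted p = 0.895), and S2 had 0 to 3 counts in homozygotes and 0 to 4 in FM7 controls. The sources used here do not say whether these flies carry either insertion.

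The 3 genes whose pattern over the 6 libraries was closest to that of Xrp1, among 6822 compared, were betaTub60D, FBgn0027585 and AOX1. Likeness was the root mean square difference of log2 CPM after each gene was centred on its own mean, and it was 0.0969, 0.122 and 0.135 for these genes, against a median of 0.586. betaTub60D, a beta-tubulin gene on 2R, had 223, 294 and 249 CPM in homozygous replicates 1 to 3, and 126, 130 and 106 CPM in FM7 replicates 1 to 3. Its order among the homozygous libraries was that of Xrp1. FBgn0027585, to which the reference gives no symbol, had 12.9, 14.2 and 15.5 CPM in homozygotes and 6.86, 7.24 and 6.80 CPM in FM7 controls. AOX1, an aldehyde oxidase gene on 3R, had 72.7, 86.8 and 85.1 CPM in homozygotes and 41.9, 43.1 and 33.5 CPM in FM7 controls. All 3 genes lay higher in each homozygous library than in any FM7 library. They were chosen for likeness to Xrp1 over these same libraries, so this separation and the order shared by betaTub60D are not independent findings.

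p53 (FBgn0039044, 3R, 23049657 to 23054082, minus strand) encodes the transcription factor that drives cell death and repair genes after DNA damage. It had 31.5, 33.0 and 32.2 CPM in homozygous libraries, against 34.6, 31.8 and 25.6 CPM in FM7 libraries. The homozygous values lay inside the FM7 range, whose lowest value was in replicate 3. p53 did not pass (log2 fold change 0.07, SE 0.10, adjusted p = 0.665), with a 95% interval from -0.16 to 0.30, so a change as large as that of Xrp1 lies outside the interval. The antisense gene asRNA:CR46089 shares 812 exonic bases with p53 but had 12, 14 and 12 counts in homozygotes and 2, 5 and 4 in FM7 controls, against 547 to 788 counts of p53. Whether counting used strand is not stated, so reads in the shared bases may have been left out or given to either gene. For the same reason the values of nbs, lok and mei-41 are uncertain by the reads of the 51, 121 and 69 exonic bases that they share with genes on the opposite strand.

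Irbp (FBgn0011774, 3R, 11410047 to 11412440, plus strand) and Ku80 (FBgn0041627, 2L, 15768630 to 15771159, minus strand) encode the subunits of the Ku dimer, which binds broken ends ahead of their joining. Irbp is not Irbp18, the leucine zipper partner of Xrp1 described below. Irbp had 61.3, 57.7 and 58.9 CPM in homozygotes and 67.2, 65.3 and 71.8 CPM in FM7 controls. The groups did not overlap, and the log2 fold change was -0.20 (SE 0.06, adjusted p = 0.0404 by edgeR).

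Ku80 had 34.1, 33.7 and 34.1 CPM in homozygotes and 38.6, 38.1 and 37.4 CPM in FM7 controls. Every homozygous library was below every FM7 library, but with a log2 fold change of -0.16 (SE 0.05) the adjusted p was 0.0560 by edgeR, just short of the threshold. The ratio of Irbp to Ku80 per exon length was 1.87 ± 0.05 in homozygotes and 1.92 ± 0.12 in FM7 controls (SD, n = 3 each; exact permutation test, two-sided, p = 0.6). The Irbp call was close to the threshold: it ended when FM7 replicate 1 or 3 or homozygous replicate 2 or 3 was left out (adjusted p up to 0.129), and with upper quartile scaling, library sizes alone or the replicate block (0.0533, 0.226 and 0.0816).

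The genes of the Mre11 complex had the smallest log2 fold changes of the 10. mre11 (FBgn0020270, 2L, 11282090 to 11284335, plus strand), the nuclease gene, had 53.7, 56.4 and 54.9 CPM in homozygotes and 54.3, 56.0 and 57.0 CPM in FM7 controls. rad50 (FBgn0034728, 2R, 22421013 to 22425482, plus strand), which encodes the tethering subunit, had 103, 99.6 and 111 CPM in homozygotes and 99.6, 105 and 111 CPM in FM7 controls. nbs (FBgn0261530, 3L, 9720414 to 9723194, minus strand), which encodes the subunit that binds the ATM kinase, had 80.5, 88.2 and 87.3 CPM in homozygotes and 84.6, 76.1 and 96.4 CPM in FM7 controls.

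The values of the genotypes overlapped for all 3. Their log2 fold changes were -0.02, -0.01 and -0.01, with adjusted p of 0.805, 0.954 and 0.964 by edgeR. Over the 3 genes the 95% intervals ran from -13.1% to 14.0%, both bounds belonging to nbs, which varied most between FM7 libraries. Per exon length, mre11 stood to rad50 at 1.07 ± 0.07 in homozygotes and 1.08 ± 0.03 in FM7 controls, and nbs to rad50 at 1.28 ± 0.09 and 1.28 ± 0.12 in the same order (SD, n = 3 each; exact permutation test, two-sided, p = 1 for both ratios).

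Of the 3 kinase genes, 1 passed the test. mei-41 (FBgn0004367, X, 16391698 to 16399850, plus strand), the ATR gene, had 34.5, 39.0 and 40.0 CPM in homozygotes and 30.3, 32.1 and 29.8 CPM in FM7 controls. All homozygous libraries were above all FM7 libraries. By edgeR the log2 fold change was 0.30 ± 0.07 (SE) and the adjusted p 0.0225. Leaving out FM7 replicate 1 or homozygous replicate 2 or 3 ended the call (adjusted p up to 0.0983). mei-41 lies on the X chromosome itself, of which FM7 controls carry a balancer copy. As for all genes here, the flam genotype and the rest of the X cannot be told apart for it. Of 1605 tested X-linked genes 13.4% were higher and 6.98% lower, against 11.4% and 7.93% of 7514 autosomal genes.

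tefu (FBgn0045035, 3R, 15232212 to 15242236, minus strand), the ATM gene, had 54.4, 54.7 and 52.9 CPM in homozygotes and 55.7, 61.4 and 66.6 CPM in FM7 controls. The groups did not overlap, though homozygous replicate 2 and FM7 replicate 1 were close. The log2 fold change was -0.18 (SE 0.07), with an unadjusted p of 0.0303 and an adjusted p of 0.102 by edgeR. Per exon length, the ratio of mei-41 to tefu was 0.675, 0.760 and 0.806 in homozygotes and 0.580, 0.557 and 0.476 in FM7 controls. The ratios did not overlap, and a two-sided exact permutation test gave p = 0.1, the lowest value possible with 3 libraries a group (0.25 adjusted over the 5 ratios computed).

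lok (FBgn0019686, 2L, 20061422 to 20064381, plus strand), the Chk2 gene, had the highest counts of the 10, up to 9685 in a library. Its level was 405, 405 and 399 CPM in homozygotes and 363, 356 and 394 CPM in FM7 controls. The lowest homozygous value was just above the highest FM7 value, that of replicate 3. The log2 fold change was 0.12 (SE 0.06, adjusted p = 0.177 by edgeR). Without FM7 replicate 3 it was 0.16 with an adjusted p of 0.0356, so the call turned on that library.

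**Figure D2:**
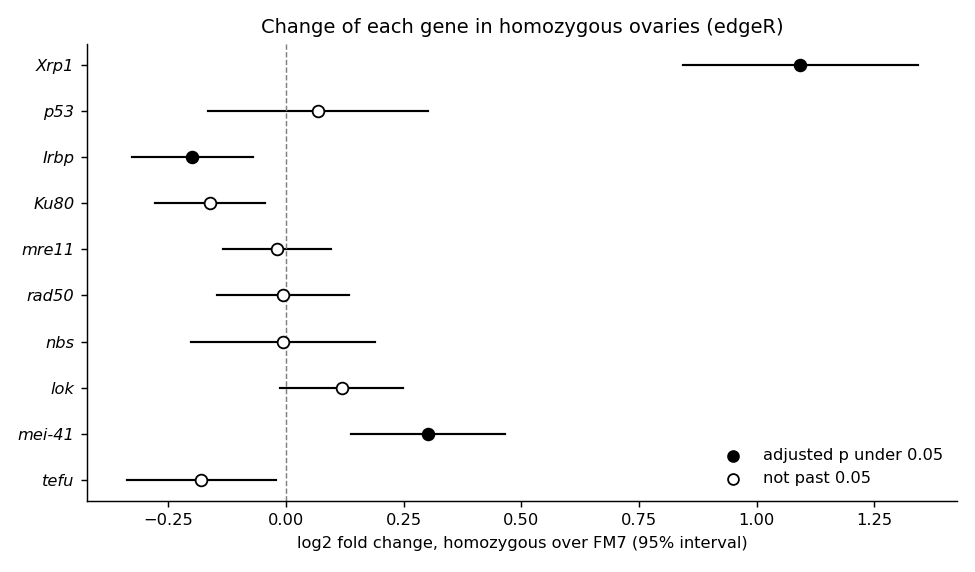
Log2 fold change of each gene, homozygous over FM7, with its 95% interval from edgeR. Filled points passed an adjusted p of 0.05. Xrp1, at 1.09, is set apart from the other 9 genes, which lie between -0.20 and 0.30.

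Levels of different genes were compared per exon length, taken over all annotated exons of a gene merged. The counts do not show which transcripts these ovaries held, so the order of genes depends on this choice. On the scale of CPM per kb of exon, lok led both genotypes, at 165 in homozygotes and 152 in FM7 controls, and no other gene came near it. In homozygotes nbs (32.8), Xrp1 (28.3), Irbp (27.6), mre11 (27.3) and rad50 (25.7) followed, and each overlapped the next in this order over the 3 libraries. p53 (15.1) and Ku80 (14.8) overlapped each other. tefu (6.42) and mei-41 (4.79) came last, and did not overlap.

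In FM7 controls the order was nbs (33.0), Irbp (31.7), mre11 (27.7), rad50 (25.8), Ku80 (16.5), p53 (14.4), Xrp1 (13.3), tefu (7.27) and mei-41 (3.89). Xrp1 thus had rank 3 in homozygotes, beside the Mre11 complex genes, but rank 8 in FM7 controls, where it overlapped p53. The spread between libraries of one genotype differed from gene to gene. The coefficient of variation was 0.680% for Ku80 and 0.812% for lok in homozygotes, against 1.68% and 5.47% in FM7 controls, and Xrp1 had the widest spread of the 10 in homozygotes, 15.0%, against 7.01% in FM7 controls. In FM7 controls the widest spread was that of p53, 15.0%, followed by nbs (11.9%) and tefu (8.91%), all above that of Xrp1. Over features of at least 10 CPM the median was 4.60% in homozygotes and 5.82% in FM7 controls.

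**Figure D3:**
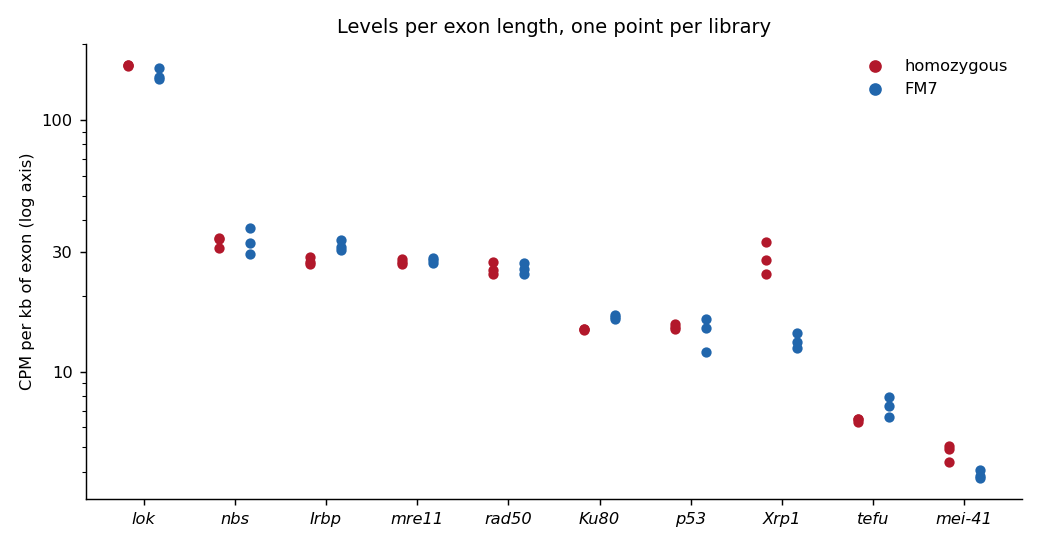
CPM per kb of exon on a log axis for each gene, 1 point per library, with genes ordered by their mean in FM7 controls. In homozygotes Xrp1 lies among the genes of the Mre11 complex, and in FM7 controls next to p53.

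Genes reported as p53 targets were next examined from a list of rpr, skl, hid, egr and Corp. Of the 4 tested, 2 were higher and 0 lower, against 12.0% and 7.71% of all features, with a median log2 fold change of 0.45, against -0.01 over all features. rpr, an inhibitor of the apoptosis inhibitor Diap1, had 70, 72 and 99 counts in homozygotes and 20, 14 and 23 in FM7 controls. In CPM these were 2.96, 3.01 and 4.18 in homozygotes against 0.90, 0.75 and 1.08 in FM7 controls. The groups lay far apart. By edgeR the log2 fold change was 1.89 ± 0.29 (SE) and the adjusted p 0.0042, and the call held under all 14 alternatives tried.

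hid, which acts on Diap1 as well, had 22.6, 33.1 and 28.3 CPM in homozygotes and 19.9, 18.5 and 16.2 CPM in FM7 controls. As for Xrp1, homozygous replicate 2 was the highest and replicate 1 the lowest. For rpr, and for Thor described below, homozygous replicate 1 was also the lowest but replicate 3 the highest. The log2 fold change of hid was 0.62 (SE 0.14, adjusted p = 0.0201), a call that ended without FM7 replicate 3 or homozygous replicate 2 or 3 (adjusted p up to 0.0799). egr, the fly TNF gene, and Corp, a p53 antagonist gene on X, did not pass (0.28 and 0.17, adjusted p = 0.156 and 0.143). skl summed to 9 counts over the homozygous and 3 over the FM7 libraries and was not tested. egr and Corp, and Irbp18, crc and Ilp8 among the genes linked to Xrp1, were picked for mention after their values were seen.

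Genes linked to Xrp1, which the figures label as its partners and targets, were called about as often as all features. The list is wider than that label and also holds stress response genes such as Gcn2 and crc. Of 10 genes (Irbp18, RpS12, crc, PEK, Gcn2, Thor, PPP1R15, Ilp8, GstD1 and Gadd45), 1 was higher and 1 lower, against 12.0% and 7.71% of all features, and the median log2 fold change was -0.09, against -0.01 over all features. Irbp18, with which the Xrp1 protein pairs, had 12.0, 12.9 and 13.9 CPM in homozygotes and 15.1, 13.1 and 12.4 CPM in FM7 controls (log2 fold change -0.07, adjusted p = 0.689 by edgeR). Per exon length, the ratio of Xrp1 to Irbp18 was therefore 1.34 ± 0.18 in homozygotes and 0.61 ± 0.09 in FM7 controls (SD, n = 3 each), without overlap. The two-sided exact permutation test again gave p = 0.1, or 0.25 adjusted over the 5 ratios.

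Thor, the translation inhibitor 4E-BP, was the gene that rose (log2 fold change 0.54, SE 0.14, adjusted p = 0.0354). It had 94.2, 113 and 130 CPM in homozygotes and 67.3, 78.0 and 86.6 CPM in FM7 controls. Gcn2, a kinase gene of the stress response that acts through crc (the fly ATF4), fell to 77.1 ± 4.33 CPM in homozygotes, against 88.6 ± 1.40 CPM in FM7 controls (log2 fold change -0.20, adjusted p = 0.0397). Among the 6 fits that leave out a library, Thor passed only without homozygous replicate 1 (adjusted p up to 0.108), and Gcn2 only without homozygous replicate 1 or FM7 replicate 3. Thor also missed the threshold with no filter on low counts. Gcn2 also missed it with upper quartile scaling, library sizes alone and the replicate block (adjusted p up to 0.207). crc itself had a log2 fold change of -0.16 (adjusted p = 0.0847). Ilp8, a relaxin-like peptide gene, had 48.4, 21.0 and 20.6 CPM in homozygotes and 36.1, 33.6 and 41.1 CPM in FM7 controls, so homozygous replicate 1 was above and the other homozygous libraries below all controls (adjusted p = 0.634).

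**Figure D4:**
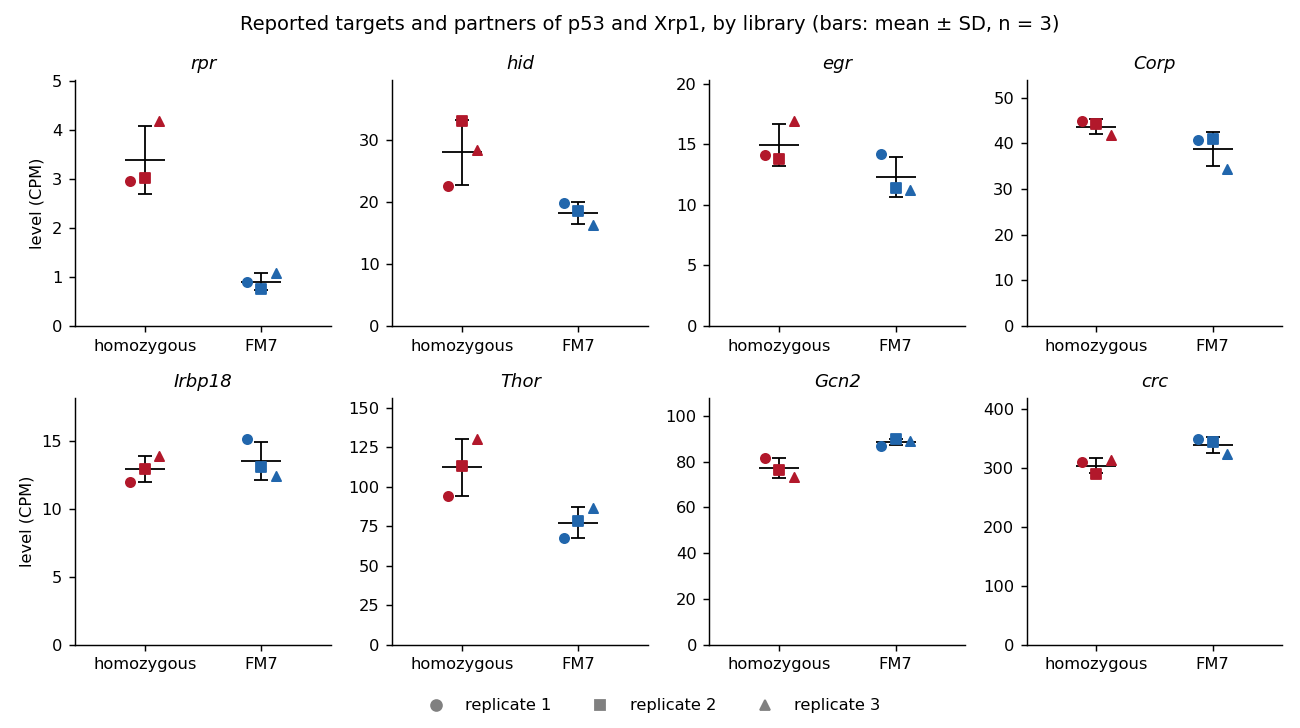
CPM of 4 reported p53 targets (top row) and of 4 genes linked to Xrp1 (bottom row) in each library, with mean and SD bars. rpr, hid, Corp and Thor lie higher in all homozygous libraries than in FM7 libraries. Gcn2 and crc lie lower in all homozygous libraries, and the groups of egr and of Irbp18 overlap. The groups also overlap for RpS12, PEK, PPP1R15, Ilp8, GstD1 and Gadd45, the genes of the Xrp1 list that are not drawn. Over all features 41.9% do not overlap.

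The wider repair machinery was described from 4 lists of 66 other genes, all tested. Of these 1 was higher and 12 lower, against 12.0% and 7.71% of all features, and 51 of 66 had a negative log2 fold change, with a median of -0.13. Over all features 4777 of 9229 were negative and the median was -0.01. The changes were small, and how many were called depended on the fit, as it did over all features. With library sizes alone 3 were higher and 3 lower, with a median of -0.04 and 41 negative. In that fit 1573 of 9229 features were higher and 323 lower. In all other alternatives 50 to 54 of the 66 were negative. Without homozygous replicate 2 or 3 or FM7 replicate 1, the lower count was 3, 2 and 3 in turn. The medians were -0.12, -0.11 and -0.15, and the lower features 317 of 9402, 227 of 9340 and 288 of 9506. With the replicate block 5 were lower, against 349 of 9229 features. DESeq2 called 15 lower, and the fit without homozygous replicate 1 called 12.

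Of 11 other checkpoint genes, 1 was lower and none higher, against 7.71% and 12.0% of all features (median -0.08). It was Rad1, a subunit of the clamp that loads at damaged DNA, at 21.8, 17.7 and 18.5 CPM in homozygotes and 23.8, 24.2 and 24.1 CPM in FM7 controls (log2 fold change -0.32, adjusted p = 0.0402 by edgeR). grp, the fly Chk1 gene, had a log2 fold change of -0.04 (adjusted p = 0.691). grp was picked for mention after its values were seen.

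Of 25 recombination genes, 4 were lower and 1 higher, against 7.71% and 12.0% of all features (median -0.16). WRNexo, an exonuclease gene related to the human Werner syndrome gene, had 72.3, 65.0 and 67.6 CPM in homozygotes and 86.6, 87.2 and 93.1 CPM in FM7 controls. The groups were well apart (log2 fold change -0.38, SE 0.06, adjusted p = 0.0048), and the call held under all 14 alternatives. RPA2, a subunit of the single-strand binding complex, was lower (-0.24, adjusted p = 0.0179), as was the helicase gene Blm (-0.20, adjusted p = 0.0317). hdm, a meiotic recombination gene on X, was higher (1.43, adjusted p = 0.0393), but from a sum of 50 counts over the homozygous and 16 over the FM7 libraries. The remaining lower gene, named after its values were seen, was CtIP, which acts with the Mre11 complex in the resection of ends (-0.32, adjusted p = 0.0400).

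The 3 end joining genes were DNAlig4, PolQ and CG12728, which RefSeq also calls both XRCC4 and XLF1. Of them 0 passed in either direction by edgeR, 0 had an unadjusted p under 0.05, and 0 passed by DESeq2 or limma-voom. Of 27 genes of other repair pathways, 7 were lower and none higher, against 7.71% and 12.0% of all features (median -0.10). Msh6, a mismatch repair gene, had 146, 134 and 138 CPM in homozygotes and 169, 166 and 181 CPM in FM7 controls (log2 fold change -0.30, SE 0.06, adjusted p = 0.0091), and this call held under all 14 alternatives. The Fanconi anaemia pathway genes Fancl (-0.50, adjusted p = 0.0116), Fancm (-0.26, adjusted p = 0.0183) and FANCI (-0.36, adjusted p = 0.0371) and the excision repair gene mus201 (-0.23, adjusted p = 0.0363) were lower too. Fancd2, the partner of FANCI, had a log2 fold change of 0.03 (adjusted p = 0.790). FANCI and Fancd2 were picked for mention after their values were seen. Of the 13 repair and checkpoint calls, the 2 of WRNexo and Msh6 held throughout. The other 11 were each lost without homozygous replicate 3 and without FM7 replicate 1, with adjusted p up to 0.204 over all alternatives.

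**Figure D5:**
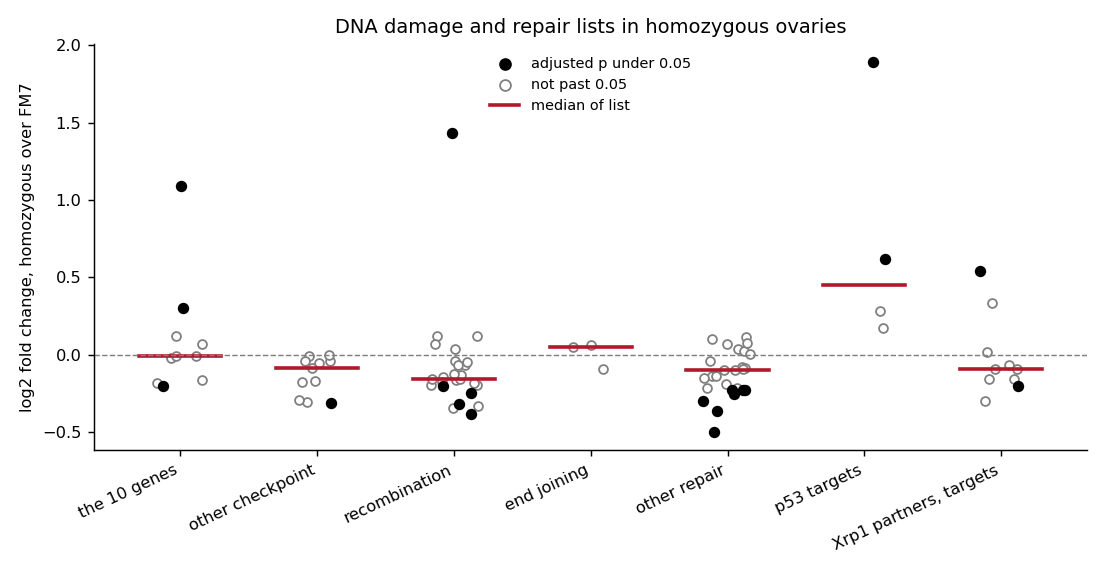
Log2 fold change, homozygous over FM7, of each tested gene of the 10 and of 6 related lists, 1 point per gene, filled where the adjusted p was under 0.05, with the list median as a bar. The called repair genes lie between -0.50 and -0.20, apart from hdm at 1.43, and Xrp1, rpr and hid lie at 0.62 or higher.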

How the data were processed

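RNA was extracted from ovaries with TRIzol and made into strand-specific mRNA libraries, per the labels' protocols. What the authors deposited is a single table of raw counts, with genes and transposon families as rows. The authors' tools are named as STAR 2.7.8a, featureCounts 2.0.1 and DESeq2 1.30.1, per the submitters' processing notes, without roles. Neither the genome build nor the counting options are stated in these sources. Symbols, positions and exon lengths were looked up by identifier in Ensembl release BDGP6.54.115, which may not be the authors' build.

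The test was edgeR 4.0.16 under R 4.3.3 (TMM scaling, filterByExpr by genotype, robust quasi-likelihood test, 3 homozygous against 3 FM7 libraries). The filter kept 9150 genes and 79 transposon families, adjusted together by Benjamini-Hochberg at 0.05. The procedure was tested on simulated data. CPM uses TMM-scaled library sizes. SE is the unshrunken log2 fold change over the root of its F statistic. Log CPM, with a prior count of 2, served only for principal components, the pairing check and the likeness to Xrp1. In a library, 3 counts correspond to 0.126 to 0.160 CPM, and replicates differed by more than sampling noise (chi-square per degree of freedom 8.18 to 38.9). Alternatives were DESeq2 1.42.0, limma-voom (limma 3.58.1), other scalings, no filter, genes alone, a replicate block and each library left out.

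The genes and lists were chosen with earlier results of these data known. All 10 genes are named, and in each pathway list up to 4 called genes with the smallest adjusted p and any gene under 30 counts in total. Marker lists are given by counts and sums, and the markers named were picked after their values were seen. One listed germline marker was not matched. No sequences are shown.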

Additional observations from a re-analysis of the deposited data

How the results depend on the processing

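The higher Xrp1 level kept its direction and its call under all 14 alternatives, with a log2 fold change of 0.97 to 1.19 without 1 library and 1.08 to 1.18 otherwise. Of the 10 genes, 1 to 3 were higher and 0 to 1 lower without 1 library, and 0 were lower with upper quartile scaling, library sizes alone or the replicate block, in which Irbp had adjusted p of 0.0533, 0.226 and 0.0816 by edgeR. Over all features, 548 to 1009 were higher and 227 to 855 lower without 1 library, 323 were lower with library sizes alone, where 83.0% of calls were higher against 60.8% with TMM, and 700 were higher and 349 lower with the replicate block. Values near 0 changed sign without passing the test. With upper quartile scaling and library sizes alone in turn, mre11 was at 0.0068 and 0.062, rad50 at 0.021 and 0.075, and nbs at 0.022 and 0.074. Without 1 library, p53 ran from -0.051 to 0.16, rad50 from -0.052 to 0.029 and nbs from -0.091 to 0.082. The cause of these shifts was not tested, and each fit without a library also holds fewer samples. The labels do not say whether replicate numbers pair the samples. Same-numbered libraries of the 2 genotypes had correlations of their deviations from the group means of -0.303, -0.071 and -0.039 over features. Other pairs had -0.190 to 0.284. With 3 libraries a group these values cannot settle whether samples were paired, so the block result is given as an alternative. The smallest count behind any of the 10 genes in a library was 547.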
